A study of Mus musculus with 10 samples.

Results

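*Kdr*, which encodes the main signaling receptor for vascular endothelial growth factor (VEGF), was compared with 9 other genes of blood vessels in the cortical hem (CH) of wild-type and *Lmx1a-/-* mouse embryos. The 9 genes were the receptor genes *Flt1*, *Tek* and *Tie1*, the co-receptor gene *Eng*, the adhesion and junction genes *Pecam1*, *Cldn5*, *Esam* and *Emcn*, and the ligand gene *Vegfa*. The 10 genes were found by symbol among 52227 genes of the count table, and all 10 were among the 21664 genes that reached 10 counts in 3 or more libraries. *Kdr* was chosen by its log2 fold change and the separation of its CPM values, since its level differed between the genotypes in these same libraries, so its genotype values are given as a description without a test. The question was whether *Kdr* moved with the endothelial content of the samples or with transcripts of the CH itself.

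RNA was sequenced from the CH at e13.5, with 5 wild-type embryos and 5 embryos homozygous for *drJ*, an *Lmx1a* allele used as a null. All were on a mixed background of C57Bl6, FVB and CD1, and animals of both sexes were used. The CH is a signaling center at the medial edge of the cortex beside the choroid plexus. The tissue was cut out by laser under bright light, so that its vessels and blood went into the sample, and the sections of an embryo were pooled into 1 library. Library totals lay between 19145952 and 36462780 counts, of which mitochondrial genes took 20.6% to 27.6%. *Xist*, the transcript of the inactive X chromosome, exceeded 1000 normalized CPM (counts scaled to a common library size) in 4 of the 5 wild-type and 0 of the 5 *Lmx1a-/-* libraries. Y-linked transcripts were present in wild-type embryo 1 and all 5 *Lmx1a-/-* embryos, so genotype and sex cannot be told apart in the other 9 libraries. *Lmx1a* was counted in both genotypes, at 71.2 ± 18.2 and 114 ± 21 CPM (SD, n = 5 each), which does not check the labels because transcripts of the *drJ* allele are counted too.

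VEGF-A, made by neural progenitors of the embryonic brain, guides vessels that sprout inward from the perineural plexus. It binds KDR (VEGFR2), a tyrosine kinase that drives endothelial growth and survival, and FLT1 (VEGFR1), which binds the ligand tightly and signals weakly, so that it often acts as a decoy. TEK (TIE2) is the receptor of the angiopoietins, TIE1 is its partner, and endoglin is a co-receptor for BMP9 and TGF-beta. *Kdr* is known as an endothelial gene, but transcripts of it have also been described in neural cells, and the study lists it among genes enriched in the CH.

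In wild-type CH, embryos 1 to 5 had 127, 80.8, 68.6, 75.2 and 116 normalized CPM of *Kdr* (ENSMUSG00000062960, chromosome 5 of GRCm38, 75932827 to 75978458, minus strand). In *Lmx1a-/-* CH, embryos 1 to 5 had 34.1, 33.9, 39.3, 33.5 and 50.8 CPM. The lowest wild-type value was above the highest mutant value, and the means were 93.6 ± 26.2 and 38.3 ± 7.38 CPM (SD, n = 5). On the log2 scale the genotypes differed by -1.29 (SE 0.18), a level 2.44-fold higher in wild type. Wild-type embryo 1, the only one of its genotype with Y-linked transcripts, had the highest value of all 10 libraries. The values rest on 624 to 3396 counts per library. Of all genes tested, 2.27% had every mutant library below every wild-type library, a share given for scale because *Kdr* was chosen for this difference.

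**Figure D1:**
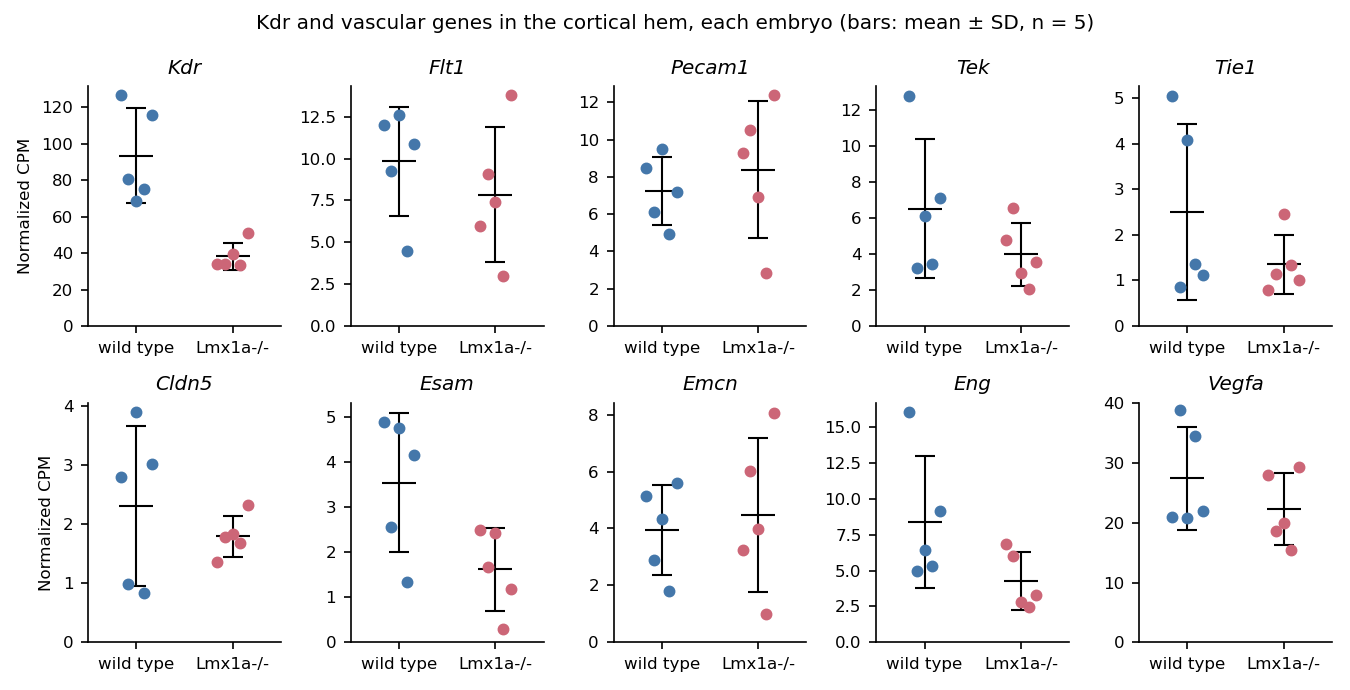
Normalized CPM (vertical axes, linear from 0, own scale for each gene) of the 10 genes in each embryo, with wild type in blue and *Lmx1a-/-* in red, drawn in the order of embryo number, and bars for the mean ± SD (n = 5). *Kdr* is the one gene whose genotypes do not overlap, with wild-type embryos at 68.6 CPM and above and mutant embryos at 50.8 CPM and below.

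The proximal promoters of *Kdr* and *Flt1* are printed because these receptor genes share a ligand and differed in how they compared between the genotypes. Both are the 250 bases before the RefSeq start in GRCm38.p6, read 5′ to 3′ on the minus strand, at chr5:75978456-75978705 for *Kdr* and chr5:147726012-147726261 for *Flt1*. Capitals mark CCGCCC, the core of a GC box, and AGGAAG, a longer form of the GGAA core of ETS factor sites, on either strand.
Kdr: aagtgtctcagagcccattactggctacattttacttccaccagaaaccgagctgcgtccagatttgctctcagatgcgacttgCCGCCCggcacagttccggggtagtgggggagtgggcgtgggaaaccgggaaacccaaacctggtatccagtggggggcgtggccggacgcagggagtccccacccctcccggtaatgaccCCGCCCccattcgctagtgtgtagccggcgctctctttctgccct
Flt1: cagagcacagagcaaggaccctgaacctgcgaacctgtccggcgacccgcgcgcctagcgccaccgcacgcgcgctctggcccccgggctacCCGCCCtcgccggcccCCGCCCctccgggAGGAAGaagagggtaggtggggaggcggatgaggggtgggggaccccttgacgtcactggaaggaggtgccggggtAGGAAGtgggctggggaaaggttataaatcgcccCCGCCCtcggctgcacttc
CCGCCC stood 2 times in the *Kdr* window, 166 and 45 bases before the start, and 3 times in the *Flt1* window, and was found in 32.7% of 32851 promoter windows of this length. AGGAAG stood 2 times in the *Flt1* window and not in that of *Kdr*, and was found in 29.5% of windows. The shorter GGAA is present in both printed windows and was not counted. TAAT, the core bound by many homeodomain proteins, the class to which Lmx1a belongs, stood 2 times in the *Kdr* window and not in that of *Flt1*, against 54.9% of all windows. The longer TAATTA, which holds a TAAT on each strand, was in neither window and in 4.84% of all. Of the 8 genes with a promoter window, 4 held CCGCCC, 4 AGGAAG, 4 TAAT and 0 TAATTA. These matches describe letters in the windows and not binding.

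None of the other 9 genes passed the threshold for a genotype difference, a false discovery rate (FDR) under 0.1 in edgeR's quasi-likelihood test adjusted over all 21664 genes. In that test 870 genes (4.02%) passed, 2.29% lower and 1.72% higher. At an unadjusted p under 0.05 there were 2 of the 9 genes, *Eng* and *Esam*, against 16.4% of all genes. DESeq2 called 1 of the 9, *Eng*, against 9.89% of the genes to which it gave an adjusted p. All 9 had overlapping genotypes. Not passing does not show an unchanged level, since *Esam* did not pass at a log2 fold change of -1.14 (SE 0.49).

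Among the receptors, *Flt1* (ENSMUSG00000029648, chromosome 5, 147561604 to 147726011, minus strand) had 12, 9.25, 12.6, 4.46 and 10.9 CPM in wild-type embryos 1 to 5. Mutant embryos 1 to 5 had 5.95, 9.08, 7.39, 2.99 and 13.8 CPM, so that the highest library was a mutant one. The log2 fold change was -0.33 (SE 0.36, FDR = 0.697 by edgeR). Embryo 4 was the lowest of its genotype in both groups, which was not so for *Kdr* in wild type, where embryo 3 was lowest. *Tek* (ENSMUSG00000006386, chromosome 4, 94739289 to 94874976, plus strand) had 12.8, 3.2, 6.09, 3.42 and 7.13 CPM in wild type and 4.75, 6.58, 2.93, 2.05 and 3.58 CPM in *Lmx1a-/-* CH. Its log2 fold change was -0.73 (SE 0.40, FDR = 0.391 by edgeR), and the wild-type mean was raised by embryo 1. *Tie1* (ENSMUSG00000033191, chromosome 4, 118471191 to 118490061, minus strand) had 5.04, 0.857, 4.09, 1.35 and 1.11 CPM in wild type and 0.798, 1.14, 2.45, 1.33 and 1.01 CPM in the mutant. Only wild-type embryos 1 and 3 exceeded the highest mutant library (log2 fold change -0.89, SE 0.51, FDR = 0.422 by edgeR).

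The co-receptor gene *Eng* (ENSMUSG00000026814, chromosome 2, 32646595 to 32682669, plus strand) had 16, 4.96, 6.41, 5.29 and 9.12 CPM in wild type and 6.85, 5.98, 2.79, 2.46 and 3.27 CPM in *Lmx1a-/-* CH. Mutant embryos 1 and 2 lay among the wild-type values, and the log2 fold change was -0.98 (SE 0.38, FDR = 0.207 by edgeR). *Eng* overlaps *Fpgs* on the other strand, and the strand setting of the counting was not given in the sources used here, so reads of the overlap may have been counted for either gene. Without wild-type embryo 1 the log2 fold change of *Eng* was -0.60, the smallest of the fits that left out 1 embryo.

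*Pecam1* (ENSMUSG00000020717, chromosome 11, 106654217 to 106750628, minus strand), an adhesion molecule found throughout the endothelium and a common measure of its amount, had 8.47, 6.13, 9.5, 4.93 and 7.2 CPM in wild-type embryos 1 to 5. Mutant embryos had 9.28, 10.5, 6.92, 2.85 and 12.4 CPM. The mutant libraries held both the lowest value and the 2 highest ones, and the log2 fold change was 0.20 (SE 0.32, FDR = 0.812 by edgeR). *Emcn* (ENSMUSG00000054690, chromosome 3, 137341067 to 137432185, plus strand), a sialomucin of capillary and venous endothelium, likewise had a positive log2 fold change of 0.16 (SE 0.45, FDR = 0.901 by edgeR). It stood at 5.15, 2.89, 4.32, 1.82 and 5.61 CPM in wild type and 3.26, 6.03, 3.99, 0.997 and 8.07 CPM in the mutant, lowest in embryo 4 of each genotype.

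*Cldn5* (ENSMUSG00000041378, chromosome 16, 18776847 to 18778262, plus strand) encodes the main claudin of the tight junctions that seal brain vessels. It had 2.8, 0.992, 3.91, 0.83 and 3.03 CPM in wild type and 1.36, 1.79, 1.84, 1.69 and 2.33 CPM in *Lmx1a-/-* CH. All mutant libraries lay inside the wild-type range (log2 fold change -0.37, SE 0.41, FDR = 0.705 by edgeR). *Esam* (ENSMUSG00000001946, chromosome 9, 37528078 to 37538319, plus strand), an adhesion molecule of endothelial junctions, had 4.89, 2.57, 4.76, 1.35 and 4.17 CPM in wild type and 2.49, 1.68, 2.42, 0.305 and 1.18 CPM in the mutant. It had the largest negative log2 fold change of the 9 genes, at -1.14 (SE 0.49, FDR = 0.259 by edgeR), but wild-type embryo 4 lay below 3 mutant libraries. These are low levels, down to 11 counts for *Esam* and 16 counts for *Cldn5* in 1 library, and fewer vessel cells and less of a transcript per vessel cell cannot be told apart in such bulk samples.

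The ligand gene *Vegfa* (ENSMUSG00000023951, chromosome 17, 46016993 to 46032369, minus strand) had 21, 38.9, 20.7, 34.5 and 21.9 CPM in wild-type embryos 1 to 5. Mutant embryos had 27.9, 18.6, 20, 15.5 and 29.3 CPM. The wild-type libraries fell into a lower trio and a higher pair, embryos 2 and 4, with mutant values on both sides of the trio. The log2 fold change was -0.30 (SE 0.22, FDR = 0.553 by edgeR).

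Levels of different genes were compared as CPM per kb of exon. In wild-type CH *Kdr* was the highest of the 10 genes at 10.4 ± 2.9 CPM per kb, and its range overlapped that of *Vegfa* at 6.39 ± 2.02. A gap without overlap followed to *Eng* at 2.07 ± 1.13, and from there each gene overlapped the next, through *Cldn5*, *Tek*, *Esam*, *Pecam1*, *Emcn* and *Flt1* down to *Tie1* at 0.506 ± 0.393 CPM per kb (SD, n = 5). The CH of wild-type embryos thus held several times more *Kdr* transcript per kb than *Pecam1* at 1.16 ± 0.29 or *Flt1* at 0.728 ± 0.242. In *Lmx1a-/-* CH the order began with *Vegfa* at 5.2 ± 1.41 and *Kdr* at 4.24 ± 0.82 CPM per kb, which overlapped. *Kdr* remained clear of the next gene, *Pecam1*, at 1.35 ± 0.59. With 33 further endothelial genes included, *Kdr* ranked 2 of 42 in wild-type CH, after *Mfsd2a* at 17.3 CPM per kb, a lipid transporter of the blood-brain barrier, and before *Cdh5* (VE-cadherin) at 4.52 and *Cd93* at 3.87 CPM per kb. Across the wild-type libraries *Mfsd2a* spanned 35.2 to 43.6 CPM and *Cdh5* 5.29 to 32 CPM. Which cells held the *Mfsd2a* transcripts was not tested.

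The ratio of *Kdr* to the vessel genes was computed in each library from CPM per kb. *Kdr* over *Flt1* was 15.8, 13.1, 8.13, 25.2 and 16 in wild-type embryos 1 to 5 and 8.58, 5.59, 7.95, 16.7 and 5.49 in the mutant. The medians were 15.8 and 7.95, but the ranges overlapped, with wild-type embryo 3 below mutant embryos 1 and 4. *Kdr* over *Pecam1* was 10.3, 9.09, 4.98, 10.5 and 11.2 in wild type and 2.54, 2.23, 3.92, 8.09 and 2.82 in the mutant, and wild-type embryo 3 lay below mutant embryo 4. Of the 8 endothelial genes set against *Kdr*, 7 gave a lower median ratio in *Lmx1a-/-* CH and 1, *Eng*, gave a higher one, with medians of 5.72 and 6.08. All 8 ratios overlapped between the genotypes. *Kdr* over the summed CPM of the 8 genes was 1.89, 2.62, 1.33, 3.21 and 2.41 in wild type and 0.983, 0.793, 1.28, 2.28 and 1.11 in the mutant, with mutant embryo 4 inside the wild-type range. That embryo had the lowest summed level of the 8 genes of all libraries, at 14.7 CPM. No test was made of these ratios, since they contain the value for which *Kdr* was chosen.

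A list of 37 further endothelial genes (transcription factors such as *Erg* and *Sox17*, junction proteins such as *Cdh5*, and transporters) served as a measure of endothelial content that holds none of the 10 genes. Of these, 33 were tested, 25 had a negative log2 fold change and 0 passed the threshold of edgeR's quasi-likelihood test. In that test 2 lower and 1 higher gene had an unadjusted p under 0.05, against 16.4% of all genes. DESeq2 called 1 lower and 1 higher, against 9.89% of the genes to which it gave an adjusted p. The median log2 fold change of the 33 genes was -0.23, against -0.0049 and 50.6% negative over all genes tested. It lay between -0.39 (without wild-type embryo 4) and -0.023 (without wild-type embryo 1) in the fits that left out 1 embryo. With red blood cell genes as a covariate it was 0.12. With the *Xist* level it was -0.91, in a fit that in effect sets wild-type embryo 1 alone against the mutants. The smallest p in the list belonged to *Fli1*, an ETS factor (log2 fold change -0.61, SE 0.21, FDR = 0.169 by edgeR), *Rasip1*, needed for vessel lumen formation (0.86, SE 0.31), *Mfsd2a* (-0.27, SE 0.11), *Cd34* (-0.82, SE 0.39) and *Apold1* (0.65, SE 0.36). The summed level of the list was 105 to 257 CPM in wild-type and 95.2 to 172 CPM in mutant libraries, and *Myct1* was at 0 in at least 1 library. Of the 42 endothelial genes, *Kdr*, which was chosen for this difference, had the lowest log2 fold change. *Nos3*, *Esam* and *Eng* followed, with larger SEs. Apart from *Kdr*, chosen also for its separation, *Rasip1* alone among these genes had no overlap between the genotypes, with the mutant higher. Over all genes tested, 4.44% have no overlap in either direction.

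**Figure D2:**
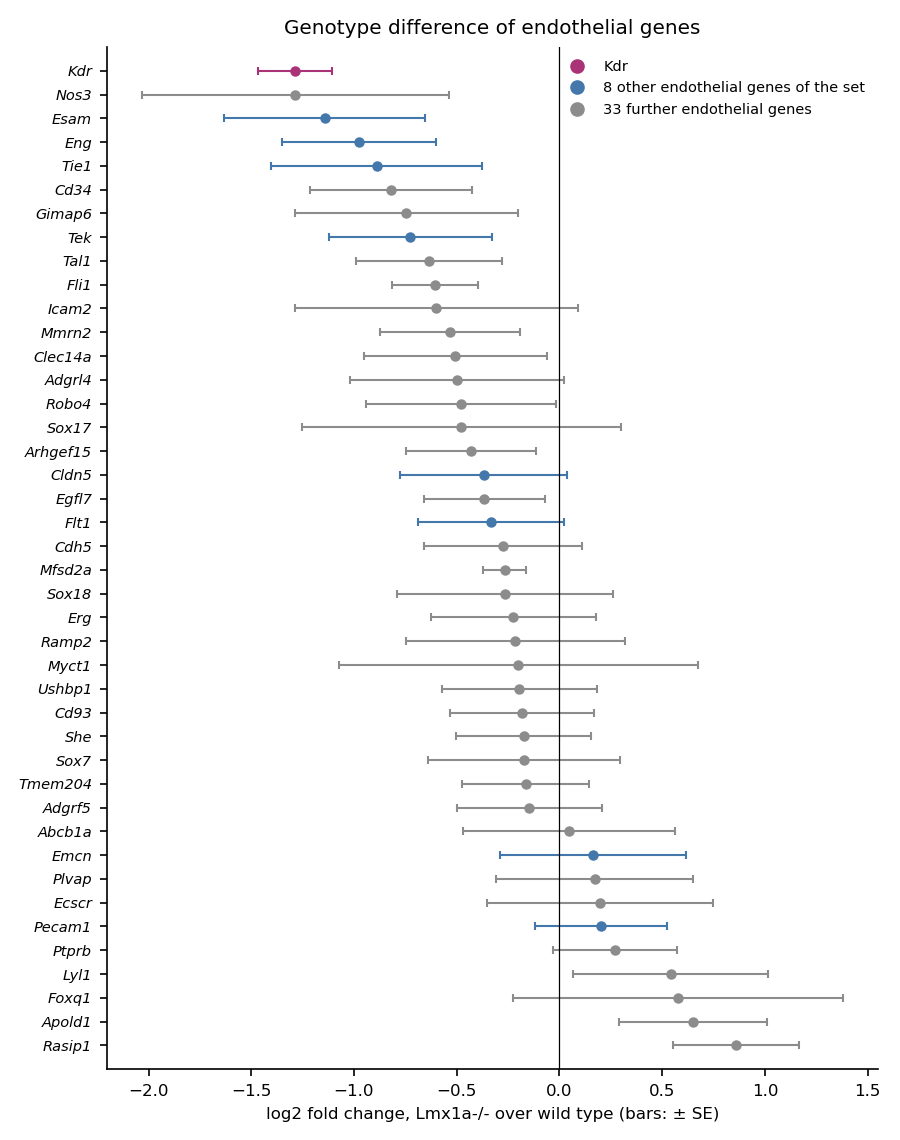
Log2 fold change of *Lmx1a-/-* over wild type (horizontal axis) for 42 endothelial genes, with bars for ± 1 SE, *Kdr* in purple, the other 8 endothelial genes compared with it in blue and 33 further endothelial genes in grey. *Kdr* lies at -1.29 with a short bar, the next genes reach as low with longer bars, and *Pecam1* and *Emcn* lie to the right of 0.

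On the log2 scale, *Kdr* minus the mean of the 33 genes was 5.01, 5.55, 4.26, 5.52 and 5.45 in wild-type embryos 1 to 5 and 3.67, 3.79, 4.13, 4.53 and 4.29 in *Lmx1a-/-* embryos. The means were 5.16 ± 0.55 and 4.08 ± 0.36 (SD, n = 5), a difference of -1.07 beside the -1.29 of *Kdr* alone. Wild-type embryo 3 lay below mutant embryos 4 and 5, and the other 4 wild-type embryos lay above all mutants. With the mean of the 33 genes as a covariate in the fit, the log2 fold change of *Kdr* was -1.22 (SE 0.17). Covariates drawn from other gene lists moved it further, to -0.997 (SE 0.22) with 14 CH genes, to -0.96 (SE 0.26) with red blood cell genes and to -0.78 (SE 0.25) with choroid plexus genes. The *Xist* level moved it to -1.68. That fit in effect sets wild-type embryo 1 alone against the mutants, since every other wild-type library exceeded 1000 CPM of *Xist*. These covariates follow the genotype (r = -0.674, -0.735, -0.795 and -0.829 over the 10 libraries), whereas the endothelial mean did so less (r = -0.211). In the 10 fits without 1 embryo the log2 fold change of *Kdr* lay between -1.40 and -1.15.

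**Figure D3:**
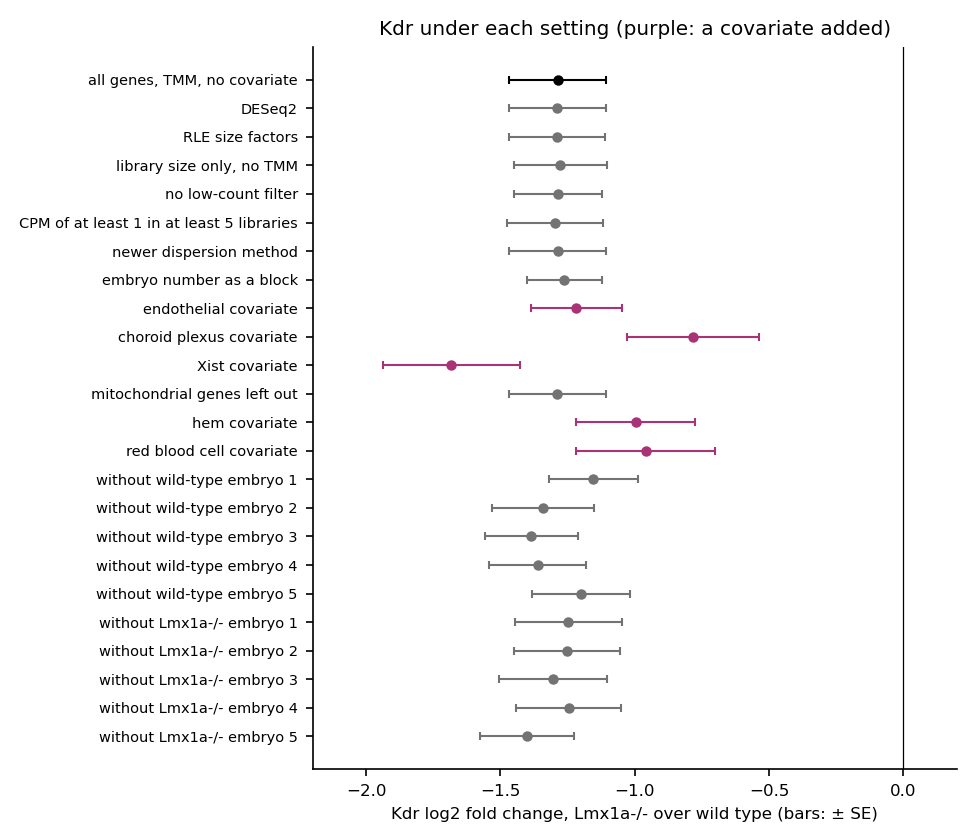
Log2 fold change of *Kdr*, *Lmx1a-/-* over wild type (horizontal axis, bars for ± 1 SE), under each way of fitting the counts, with fits that add a covariate in purple. The value keeps its sign in all of them and is nearest to 0 with the choroid plexus covariate, at -0.78.

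Variation among embryos of one genotype gave a comparison that does not use the genotype difference. For each gene the deviation of its log2 CPM from the genotype mean was set against the deviation of the mean of the 33 endothelial genes over 10 libraries, with an exact two-sided permutation test within genotype and adjustment over 20 relations. *Pecam1* followed the endothelial mean with Pearson's r = 0.792 (exact permutation p = 0.00104, adjusted p = 0.0208) and Spearman's rho = 0.77 (exact permutation p = 0.00465, adjusted p = 0.0793). Without the 2 libraries farthest from the median, embryo 4 of each genotype, r was 0.669. *Tek* (r = 0.859), *Esam* (r = 0.811), *Emcn* (r = 0.753) and *Flt1* (r = 0.751) also passed 0.05 after adjustment by Pearson's r, and without those 2 libraries their r was 0.772, 0.586, 0.432 and 0.348. By Spearman's rho 0 of the 10 genes passed after adjustment.

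*Kdr* was not shown to follow the endothelial mean. It had r = 0.414 (exact permutation p = 0.314, adjusted p = 0.523) and rho = 0.43 (exact permutation p = 0.304, adjusted p = 0.412), and r = 0.222 without the same 2 libraries. *Cldn5* (r = 0.765), *Eng* (r = 0.722) and *Tie1* (r = 0.568) did not pass after adjustment either, and *Vegfa* had r = -0.307 (exact permutation adjusted p = 0.643). Among the 9 endothelial genes *Kdr* thus had the lowest r with the endothelial mean, but the difference between correlations was not tested. Leaving out 1 embryo moved the r of *Kdr* between 0.172 (without wild-type embryo 1) and 0.753 (without wild-type embryo 3, exact permutation p = 0.0552, adjusted p = 0.158). In wild-type embryo 3 *Kdr* was 0.403 below its genotype mean on the log2 scale while the endothelial mean was 0.493 above its own.

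The same comparison was made with the mean of 14 CH genes (*Lmx1a*, *Msx1*, *Gdf5*, and Wnt, R-spondin and Bmp ligand genes). *Kdr* had r = 0.466 (exact permutation p = 0.251, adjusted p = 0.502) and rho = 0.127 (exact permutation p = 0.768, adjusted p = 0.808). It was the 1 gene of the 10 with a positive r, the others lying between -0.514 for *Pecam1* and -0.002 for *Vegfa*, and 0 of the 10 passed after adjustment. Without the 2 libraries farthest from the median, wild-type embryo 3 and mutant embryo 1, the r of *Kdr* was 0.014, so the relation rested on those libraries. At 10 libraries, neither index was shown to track *Kdr* within genotypes, and the spread of its r among the fits without 1 embryo was wide for both.

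**Figure D4:**
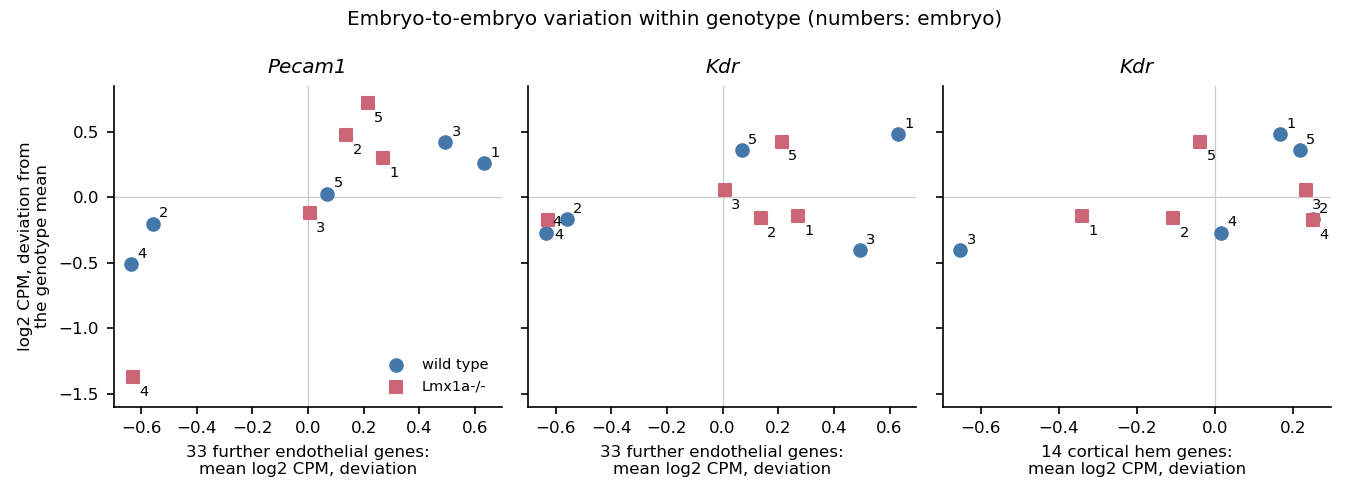
Deviation of log2 CPM from the genotype mean for *Pecam1* (left) and *Kdr* (middle) against that of 33 endothelial genes, and for *Kdr* against that of 14 CH genes (right), with wild type as blue circles, *Lmx1a-/-* as red squares and the embryo number beside each point. *Pecam1* rises with the endothelial mean (r = 0.792), while *Kdr* scatters more against it (r = 0.414), with wild-type embryo 3 at the lower right, and its relation to the CH genes (r = 0.466) leans on that embryo.

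Over 16716 genes with a mean of at least 1 CPM, the within-genotype deviations most like those of *Kdr* were those of *Rgs16*, a regulator of G protein signaling (r = 0.942), *Acp2*, a lysosomal acid phosphatase (r = 0.941), *Smim15* (r = 0.905), *Carhsp1* (r = 0.894) and *C3ar1*, the receptor of complement C3a (r = 0.893). *Tmem237*, *Slc15a4*, *C530005A16Rik*, *Rap1b* and *Rdm1* followed, down to r = 0.872. None of these 10 genes passed the threshold for a genotype difference (FDR of 0.15 and above by edgeR). *Wnt8b*, a CH ligand gene, ranked 433 (r = 0.648), and the CH ligand genes *Rspo3*, *Wnt3a* and *Wnt2b* ranked 1375 (r = 0.503), 2238 (r = 0.42) and 4409 (r = 0.256). The endothelial genes *Emcn*, *Flt1* and *Cdh5* ranked 858 (r = 0.569), 1297 (r = 0.512) and 2188 (r = 0.425). *Tek*, *Cldn5* and *Eng* ranked 1780, 2434 and 2477 (r = 0.461, 0.404 and 0.4). *Pecam1*, *Esam* and *Tie1* ranked 3392, 4119 and 6414 (r = 0.328, 0.274 and 0.124), so that the ranks of both kinds of gene intermingled. For *Pecam1*, ranked in the same way, the closest were *Gpr153*, *Kbtbd4*, the endothelial receptor gene *Adgrl4*, *Srrm3* and *Gm6505* (r from 0.981 to 0.952). *Emcn* ranked 16 (r = 0.925) and *Flt1* 28 (r = 0.897), while *Kdr* ranked 3455 (r = 0.328). These correlations over 10 libraries are a description, and ranks among so many genes carry no test.

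Of 28 genes of the VEGF and angiopoietin pathways, 27 were tested and 19 had a negative log2 fold change, with a median of -0.30. These counts include *Kdr*, which was chosen on its genotype values and is not counted as a call here. Among the other genes *Vegfc*, higher, passed the threshold, against 4.02% of all genes in either direction and 1.72% higher. At an unadjusted p under 0.05 in edgeR's quasi-likelihood test 4 genes were lower, *Kdr* included, and 2 higher, against 16.4% of all genes. *Vegfc*, the ligand of VEGFR3 and of KDR, had 17.5, 12.4, 15.1, 9.24 and 16.5 CPM in wild-type embryos 1 to 5 and 26.8, 29.5, 19.2, 21.7 and 28.6 CPM in *Lmx1a-/-* embryos. The genotypes did not overlap, as for the 2.17% of all genes with every mutant library above the wild type, and the log2 fold change was 0.82 (SE 0.18, FDR = 0.0326 by edgeR). It passed in each of the 10 fits without 1 embryo. With the mean of the further endothelial genes as a covariate it passed too (0.94, SE 0.14, FDR = 0.00443 by edgeR). It did not pass with the choroid plexus (0.78, FDR = 0.621 by edgeR), CH (0.68, FDR = 0.295) or red blood cell (1.02, FDR = 0.284) covariate. In those fits 11, 180 and 14 genes of the whole table were called higher. With the *Xist* covariate, which in effect sets wild-type embryo 1 alone against the mutants, it was 0.48. *Aplnr*, the apelin receptor of sprouting vessels (log2 fold change -1.13, SE 0.40, FDR = 0.176 by edgeR), its ligand *Apln* (-1.27, SE 0.49) and the tip cell Notch ligand *Dll4* (-0.98, SE 0.35) had lower means but did not pass, nor did the adaptor gene *Grb10* (0.16, FDR = 0.219 by edgeR). The co-receptor genes *Nrp1* (0.20, SE 0.35) and *Nrp2* (0.24, SE 0.25), the receptor gene *Flt4* (-0.35, SE 0.60) and the hypoxia factor gene *Hif1a* (125 and 124 CPM) did not pass either.

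Markers of other cells in the sample moved with the genotype to different degrees, and their part in the *Kdr* values was not tested. Of 11 tested red blood cell genes 9 had negative log2 fold changes (median -0.91) and 0 passed in edgeR's quasi-likelihood test. In it 6 were lower at an unadjusted p under 0.05, against 8.7% of all genes. Their summed level was 644 to 1490 CPM in wild type and 269 to 583 CPM in the mutant without overlap. *Hbb-y*, at 565 ± 238 and 300 ± 97.1 CPM (SD, n = 5), was the largest part. It was the 1 gene of the 11 without overlap, against 2.27% of all genes lower in this way. Of 12 pericyte and smooth muscle genes 7 were negative (median -0.065), 0 passed and 3 were lower at an unadjusted p under 0.05, against the same 8.7%. Their sums overlapped (116 to 155 and 98.9 to 153 CPM). *Notch3* was the largest part of both, with means of 70.2 ± 12.4 and 71.2 ± 21.1 CPM (SD, n = 5). Of the 12 genes, 2 had every mutant library below the wild type, against 2.27% of all genes. These were *Foxf2*, a transcription factor gene of brain pericytes (log2 fold change -1.07, SE 0.32, FDR = 0.111 by edgeR), and *Pdgfrb*, the pericyte receptor gene (-0.43, SE 0.13, FDR = 0.113 by edgeR), and neither passed. Of 14 microglia and macrophage genes 5 were negative and 1 was lower past the threshold, against 2.29% of all genes (sums of 39.2 to 73.3 and 40.3 to 69.6 CPM). Of 12 mesenchyme and meninges genes 8 were negative and 3 were lower past the threshold, against the same 2.29% (381 to 966 and 297 to 563 CPM). Of 11 choroid plexus genes 10 were negative, with a median log2 fold change of -1.31 and sums of 100 to 466 and 130 to 195 CPM. *Otx2* had the highest mean of this list, at 131 ± 52.5 and 110 ± 20.6 CPM (SD, n = 5), and so weighed most on the sums. In this list 3 were lower past the threshold, against 2.29% of all genes, and 8 were lower at an unadjusted p under 0.05, against 8.7%. At least 1 library was at 0 for *Higd1b*, *Slc6a13* and *Kcne2*, 1 gene of each of the pericyte, mesenchyme and choroid plexus lists.

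Of the 14 CH genes, 11 had negative log2 fold changes, with a median of -0.43. Past the threshold 5 were lower, against 2.29% of all genes, and 1, *Lmx1a*, was higher, against 1.72%. Of 10 genes of the cortical neuroepithelium beside the CH, 1 was negative and 2 were higher past the threshold, against the same 1.72%. The 13 other CH markers of the study, among them *Slc17a8*, a vesicular glutamate transporter gene, and *Lmo2*, a LIM domain gene also active in blood and endothelium, were all lower, called and without overlap, with a median log2 fold change of -1.48. The study took that list, *Kdr* included, from genes misregulated in these libraries, so it is not independent evidence of the direction. Their expression in the CH rests on another source, since the study kept those that public in situ hybridization images showed mainly there.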

How the data were processed

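CH RNA of 10 embryos was sequenced with 1 library per embryo. The authors trimmed paired reads (Trimmomatic), mapped them to GRCm38 (STAR 2.7.1a) and counted reads per Ensembl gene with HTSeq 0.11.2, and the deposited values are these counts, unfiltered and not normalized. Of 52508 rows, 281 repeated another row and were dropped.

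Genes that reached 10 counts in 3 or more libraries entered the quasi-likelihood test of edgeR 4.0.16 (TMM scaling, trended dispersion, no covariate), and an FDR under 0.1 was the threshold. The SE is the log2 fold change divided by the square root of F. Log2 CPM used a prior count of 2. Gene positions and exon lengths are those of GENCODE M21 for GRCm38, and promoters those of RefSeq for GRCm38.p6 (8 of 10 genes matched, not *Pecam1* and *Esam*). The fits were tested on simulated data.

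Genotype and embryo number came from the labels. The 10 genes and all lists were chosen with earlier results of these data known. The rule for named genes took the 10 genes, up to 5 genes of smallest p of each list (printed in full for the endothelial and pathway lists only), the 10 genes most like *Kdr* and the 5 most like *Pecam1*, and *Lmx1a*. Other genes were named after their values were seen. Alternatives were DESeq2 1.42.0, other scaling and filters, the newer edgeR dispersion method, an embryo number block, covariates and leaving out each embryo. The CH and red blood cell covariates and leaving out mitochondrial genes were chosen after seeing the data. Each library is a separate animal.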

Additional observations from a re-analysis of the deposited data

How the results depend on the processing

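*Kdr* kept a negative log2 fold change in all fits, from -1.68 with the *Xist* covariate to -0.78 with the choroid plexus covariate, and from -1.40 to -1.15 when each embryo was left out in turn. The number of the 9 other genes called was 1 with DESeq2 (*Eng*, FDR = 0.0851) and 1 with the embryo number as a block, and 0 in each of the fits without 1 embryo. The median log2 fold change of the 33 endothelial genes was -0.91 with the *Xist* covariate and 0.12 with the red blood cell covariate, and lay between -0.39 and -0.023 when each embryo was left out. *Kdr* relative to these genes lay between -1.30 and -0.97 in those fits. The pathway genes past the threshold, counted with *Kdr*, which was chosen on these values, were 2 without a covariate, 4 with DESeq2, 1 with the *Xist* or CH covariate (*Kdr*) and 0 with the choroid plexus or red blood cell covariate, *Kdr* included, and 2 to 3 without 1 embryo. The r of *Kdr* without 1 embryo ranged from 0.172 to 0.753 with the endothelial genes and from 0.153 (without wild-type embryo 3) to 0.572 with the CH genes. The covariates hold information on the genotype, and the cause of these changes was not tested. With the *Xist* covariate, genotype differences rest in effect on wild-type embryo 1 alone against the mutants.

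Among genes that did not pass, the sign turned for *Cldn5* with the endothelial covariate (0.055), for *Vegfa* with the choroid plexus (0.20) and *Xist* (0.17) covariates, and for *Pecam1* with the *Xist* (-0.038) and CH (-0.31) covariates. It turned for *Flt1* (0.005) and *Tek* (0.17) with the red blood cell covariate, and for *Emcn* with the *Xist* (-0.22) and CH (-0.048) covariates and between -0.16 and 0.42 without 1 embryo.

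Genes called over the whole table were 976 lower and 790 higher with DESeq2, 12 and 11 with the choroid plexus covariate, 26 and 1 with *Xist*, 125 and 180 with the CH and 17 and 14 with the red blood cell covariate, and 261 and 190 without *Lmx1a-/-* embryo 4. The embryo numbers did not pair the samples (correlations of same-numbered embryos from -0.0985 to 0.0133). With the number as a block, 353 genes were lower and 248 higher, *Esam* passed (-1.27, FDR = 0.0993), *Kdr* stood at -1.26, and its r was 0.029 with the endothelial and 0.813 with the CH genes (exact permutation adjusted p = 0.983 and 0.542). At 11 to 429 counts per library the 8 endothelial genes compared with *Kdr* were measured with SEs of 0.32 to 0.51. *Esam*, at -1.14 without a block, did not pass (FDR = 0.259 by edgeR). Differences well above 1 SE, even near that of *Kdr*, could thus go uncalled among these genes.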
